A study of Saccharomyces cerevisiae with 6 samples.

Results

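The genes described here encode 10 antioxidant enzymes of the budding yeast Saccharomyces cerevisiae: the catalases CTT1 and CTA1, the superoxide dismutases SOD1 and SOD2, the cytochrome c peroxidase CCP1, the peroxiredoxins TSA1, TSA2 and PRX1, the glutathione peroxidase GPX1 and the sulfiredoxin SRX1. They were chosen by name through the annotation of the array, which held 1 probe set for each, so that all 10 were measured among 5449 genes. The choice was made with earlier results of these data known, so their counts beside those of all genes are descriptive. Expression had been recorded on 6 Affymetrix arrays, 3 for a strain carrying a GCN4 deletion and 3 for the wild-type strain FY4, a prototrophic laboratory strain. Both were grown in batch in minimal medium with glucose at 30 °C and 300 rpm and collected in exponential growth, to find how expression in the deletion strain differs from FY4. The marker used for the deletion, its parent strain and whether replicates were separate cultures are not given in the sources used here. Changes are thus differences between the strains, and the p-values cover the spread between arrays, which may be technical. The deposited normalised intensities were analysed as log2 levels, and changes are deletion minus wild-type.

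Superoxide dismutases turn superoxide into hydrogen peroxide, and catalases and peroxidases then remove the peroxide. Each cell compartment has enzymes of its own. For sorting, each enzyme was given at most a single compartment, and further locations were left out. Ctt1, Tsa1, Tsa2 and Srx1 are cytosolic, Sod1 is mostly cytosolic, and Sod2, Prx1 and Ccp1 are mitochondrial. Cta1 was sorted as peroxisomal. In yeast, Yap1 and Skn7 switch on many peroxide-defence genes when oxidants appear. Msn2 and Msn4 switch on CTT1 and other genes under general stress, and Gcn4 activates amino acid biosynthesis genes.

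The labels were checked on GCN4, whose log2 level lay between 4.18 and 4.48 on the deletion arrays, below the background level of each, against 14.20 to 14.51 on the wild-type arrays. The background level of an array was the 95th percentile of its probe sets for another species, 6.08 to 6.36 on deletion arrays and 6.28 to 6.61 on wild-type arrays. All 10 antioxidant genes lay above it on all 6 arrays. Over all 5449 genes the median log2 change was 0.09.

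Of the 10 genes, 7 rose in the deletion strain at an adjusted p under 0.05 by limma, 0 fell and 3 did not pass, where 24.6% of all genes rose and 7.67% fell. At an unadjusted p under 0.05, 7 of the 10 were higher and 1, TSA1, was lower, against 32.0% and 10.9% of all genes. The plain equal-variance test with adjustment also gave 7 and 1, against 20.6% and 6.57% of all genes. The median log2 change of the 10 was 0.60, or 0.50 after centring and 0.37 after quantile normalization, where the median of all genes was -0.016 and -0.021. The genes that rose were CTT1, TSA2, GPX1, CTA1, PRX1, SOD2 and CCP1, and SOD1, TSA1 and SRX1 did not pass. The deletion arrays lay above the wild-type arrays without overlap for 8 of the 10 genes and below them for 1, as for 34.9% and 12.6% of all genes. With a replicate block, that is, with the replicate number as a term of the fit, 8 genes rose and 1 fell, against 35.3% and 12.2% of all genes. Once the arrays had been centred on their medians, 6 rose and 1 fell, against 14.3% and 12.9% of all genes. After quantile normalization 5 rose and 0 fell by limma, against 12.7% and 16.0% of all genes.

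**Figure D1:**
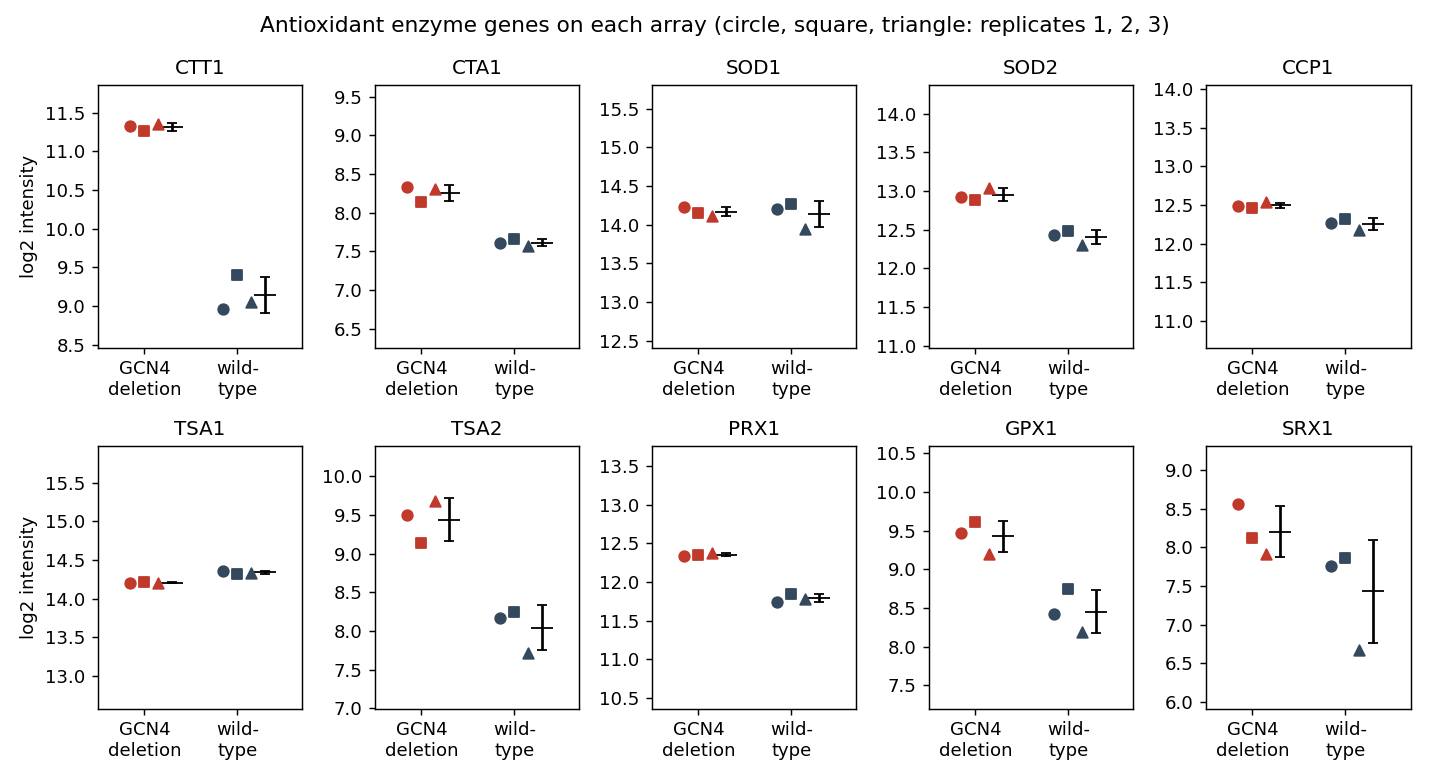
Log2 intensity of the 10 antioxidant enzyme genes on each array, GCN4 deletion in red on the left and wild-type in dark blue on the right of each panel, with the mean and SD of 3 arrays beside the points. Every panel spans the same range on its vertical axis, and the widest gap between the groups is that of CTT1, with deletion arrays at 11.26 to 11.36 and wild-type arrays at 8.96 to 9.40.

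CTT1 (YGR088W), the cytosolic catalase T gene, had the largest change of the 10. Its log2 level was 11.33, 11.26 and 11.36 on the deletion arrays, against 8.96, 9.40 and 9.05 on the wild-type arrays. The deletion arrays lay close together, and the lowest of them was far above the highest wild-type array. CTT1 was 4.52-fold higher in the deletion (log2 change 2.17, 95% interval 1.89 to 2.46, adjusted p = 6.07e-05, limma), the 46th highest change of all genes. Its log2 change was 2.07 once arrays had been centred on their medians and 1.98 after quantile normalization.

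CTA1 (YDR256C) encodes catalase A, the peroxisomal enzyme that removes the hydrogen peroxide made by fatty acid oxidation. Its log2 level was 8.33, 8.13 and 8.30 on the deletion arrays, against 7.61, 7.66 and 7.57 on the wild-type arrays. The groups did not overlap, and CTA1 was 1.56-fold higher in the deletion (log2 change 0.64, 95% interval 0.48 to 0.81, adjusted p = 0.000881). The size of this change depended on how the arrays were scaled. It was 0.39 after cyclic loess (adjusted p = 0.0133) and 0.12 after quantile normalization, where it did not pass (adjusted p = 0.286). Among the 142 genes with a mean log2 level of 7 to 8, as CTA1 had, the median log2 change was 0.43 and 50.7% rose. The increase of CTT1 exceeded that of CTA1 by 1.53 ± 0.12 on the log2 scale (standard error, exact two-sided permutation p = 0.1, n = 3 arrays per strain), the smallest p that 3 arrays against 3 can give.

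SOD1 (YJR104C) encodes the copper and zinc superoxide dismutase, and SOD2 (YHR008C) the manganese enzyme of the mitochondrial matrix. SOD1 had log2 levels of 14.23, 14.15 and 14.11 on the deletion arrays, against 14.20, 14.26 and 13.95 on the wild-type arrays. The groups overlapped, and the log2 change of 0.03 did not pass (95% interval -0.19 to 0.25, adjusted p = 0.836). The interval leaves room for a change of either sign within those bounds. SOD2 had log2 levels of 12.93, 12.89 and 13.05 on the deletion arrays, against 12.43, 12.48 and 12.30 on the wild-type arrays. All deletion arrays were higher, and SOD2 rose 1.46-fold (log2 change 0.55, 95% interval 0.38 to 0.72, adjusted p = 0.00207), a call kept in all 20 alternatives. The change of SOD1 minus that of SOD2 was -0.52 ± 0.08 (standard error, exact permutation p = 0.1).

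CCP1 (YKR066C), whose product reduces hydrogen peroxide in the mitochondrial intermembrane space with electrons from cytochrome c, had the smallest of the called changes. Its log2 level was 12.49, 12.46 and 12.53 on the deletion arrays, against 12.26, 12.32 and 12.17 on the wild-type arrays. The groups did not overlap, and the rise was 1.18-fold (log2 change 0.24, 95% interval 0.11 to 0.38, adjusted p = 0.0187). The call ended after centring (log2 change 0.14, adjusted p = 0.123), after quantile normalization (adjusted p = 0.0567), and without deletion replicate 1, deletion replicate 3 or wild-type replicate 1 (adjusted p of 0.0592, 0.054 and 0.0601). It was lost in 9 of 20 alternatives.

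Peroxiredoxins reduce peroxides through a reactive cysteine and draw on thioredoxin or glutathione. TSA1 (YML028W), the main cytosolic peroxiredoxin gene of growing cells, had log2 levels of 14.20, 14.21 and 14.21 on the deletion arrays, against 14.36, 14.32 and 14.33 on the wild-type arrays. Every deletion array lay below every wild-type array, by a small margin. The log2 change of -0.13 (95% interval -0.23 to -0.03) did not pass (adjusted p = 0.0518). TSA1 fell with a replicate block (adjusted p = 0.0394) and after centring (log2 change -0.24, adjusted p = 0.0172), but not after quantile normalization (log2 change -0.11, adjusted p = 0.108).

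TSA2 (YDR453C), a cytosolic peroxiredoxin gene closely related to TSA1, rose. Its log2 level was 9.51, 9.13 and 9.68 on the deletion arrays, against 8.17, 8.25 and 7.72 on the wild-type arrays. The deletion arrays were all higher, with more spread within each strain (SD of 0.28 and 0.29) than for TSA1 (SD of 0.01 and 0.02). TSA2 rose 2.63-fold (log2 change 1.39, 95% interval 0.94 to 1.85, adjusted p = 0.00255), and its log2 change was 1.02 after quantile normalization (adjusted p = 0.00784). The change of TSA2 minus that of TSA1 was 1.53 ± 0.23 (standard error, exact permutation p = 0.1). TSA1 and TSA2 are similar genes, and whether their probe sets share matches was not tested.

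PRX1 (YBL064C), the mitochondrial peroxiredoxin gene, had log2 levels of 12.34, 12.34 and 12.38 on the deletion arrays, against 11.74, 11.85 and 11.78 on the wild-type arrays. These 6 values were tight within each strain and well apart between them. PRX1 rose 1.48-fold (log2 change 0.56, 95% interval 0.44 to 0.68, adjusted p = 0.000403), a call kept in all 20 alternatives. Its change exceeded that of cytosolic TSA1 by 0.70 ± 0.04 (standard error, exact permutation p = 0.1). Adjusted over the 4 pairs of enzymes compared, p stayed at 0.1. The per-array differences did not overlap between the strains in any of the 4 pairs, which restates the p of 0.1. Of all single genes, 34.9% were higher and 12.6% lower in the deletion without overlap, and the share among pairs of genes was not computed. TSA1 enters both the TSA2 and the PRX1 pair, so these pairs are not separate results.

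SRX1 (YKL086W) encodes sulfiredoxin, which restores peroxiredoxins whose cysteine has been over-oxidised. Its log2 level was 8.56, 8.13 and 7.92 on the deletion arrays, against 7.76, 7.86 and 6.67 on the wild-type arrays. The deletion arrays lay above the wild-type arrays, with the lowest deletion array just above the highest wild-type array. The log2 change of 0.77 did not pass (95% interval -0.06 to 1.60, adjusted p = 0.139). With a replicate block SRX1 rose (standard error 0.18, against 0.34 without the block, adjusted p = 0.0214). The same-numbered differences were 0.80, 0.26 and 1.25. Leaving out wild-type replicate 3, the lowest array, gave a log2 change of 0.39 (adjusted p = 0.187), and leaving out other single arrays gave 0.59 to 0.99. Without both arrays numbered 3 the log2 change was 0.53 (adjusted p = 0.0793), and after quantile normalization it was 0.27 (adjusted p = 0.577).

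GPX1 (YKL026C) encodes a phospholipid hydroperoxide glutathione peroxidase. Its log2 level was 9.46, 9.61 and 9.20 on the deletion arrays, against 8.42, 8.75 and 8.19 on the wild-type arrays. Replicate 2 was the highest and replicate 3 the lowest array in both strains, and the groups did not overlap. GPX1 rose 1.96-fold (log2 change 0.97, 95% interval 0.57 to 1.37, adjusted p = 0.00608). With a replicate block the standard error was 0.05, against 0.17 without it, and after quantile normalization the log2 change was 0.67 (adjusted p = 0.0109).

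**Figure D2:**
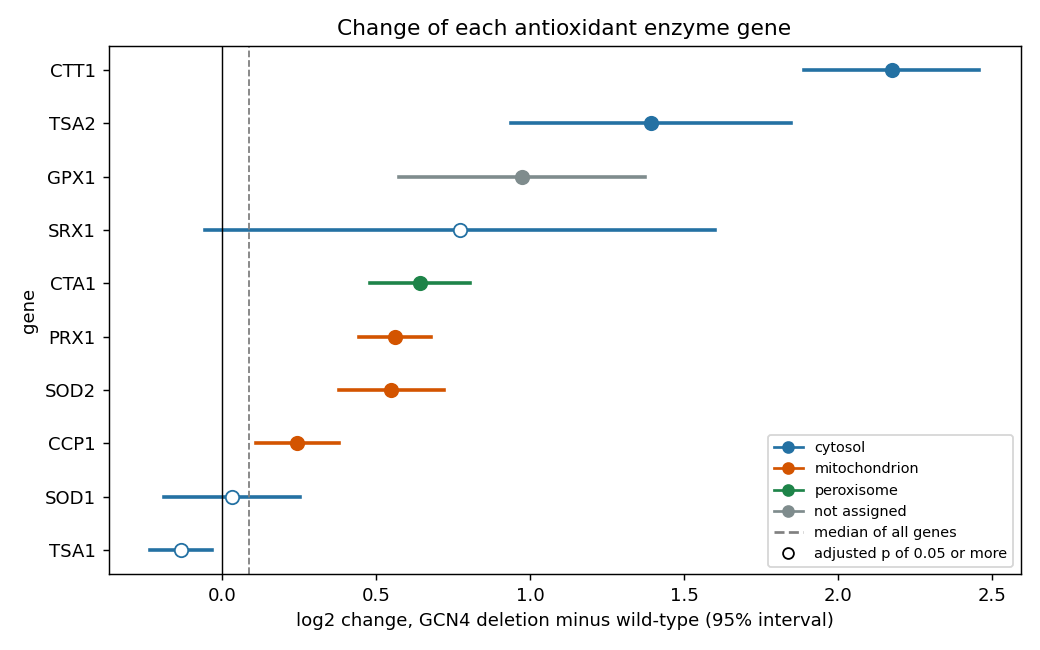
Log2 change of each gene, GCN4 deletion minus wild-type, with its 95% interval from limma, coloured by the compartment of the enzyme. Filled points had an adjusted p under 0.05. The intervals of SOD1 and SRX1 cross 0, and the dashed line marks the median change of all genes, 0.09.

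Sorted by compartment, all 3 genes for mitochondrial enzymes among the 10 rose, with log2 changes of 0.24 to 0.56. The 1 peroxisomal gene rose too, where 24.6% of all genes rose. After quantile normalization neither CCP1, 1 of the mitochondrial set, nor peroxisomal CTA1 was called. GPX1 was not assigned to a compartment. Of the 5 cytosolic genes 2 rose, and the log2 changes of these 5 ran from -0.13 for TSA1 to 2.17 for CTT1. The cytosolic set thus held both the largest rise and the lowest value of the 10. A difference between compartments as sets was not tested. The lists below were not sorted by compartment. Among their genes for mitochondrial proteins, MCR1 and POS5 rose, IDP1 fell and TRX3 was not called.

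The changes were read against the level of the probe sets, because genes with dim probe sets were on balance higher in the deletion. The median log2 change was 0.20 for the 209 genes with a mean log2 level of 8 to 9, where TSA2 and GPX1 lay, and 38.8% of these genes rose. It was 0.10 for the 1415 genes at 10 to 11, where CTT1 lay, with 25.7% higher. It was 0.06 for the 880 genes at 12 to 13, where PRX1, SOD2 and CCP1 lay, with 17.5% higher. For the 168 genes at 14 to 15, where SOD1 and TSA1 lay, it was -0.0035 with 4.17% higher. CTT1, TSA2, GPX1, PRX1 and SOD2 were each above the median of their own range by at least 0.4. The called genes CTA1 and CCP1 were above theirs by less, and so was SRX1. CTA1 and SRX1, at 0.64 and 0.77, lay at levels of 7 to 8, where the median was 0.43 and 50.7% rose. CCP1 had a log2 change of 0.24. The part of the array scaling in the changes of the dim genes was not tested beyond the normalizations given.

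**Figure D3:**
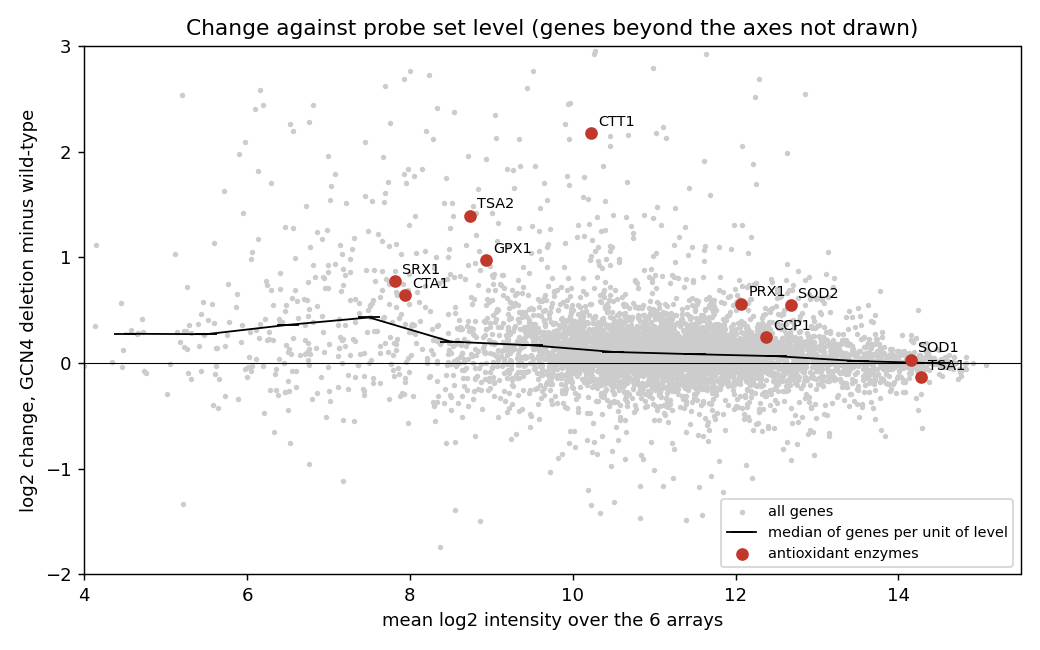
Log2 change, GCN4 deletion minus wild-type, against the mean log2 intensity of the probe set over the 6 arrays, for all genes in grey and the 10 antioxidant genes in red. The black line joins the medians of all genes per unit of level, which lie at 0.43 for levels of 7 to 8 and at 0.06 for 12 to 13. Levels of different probe sets do not rank the abundance of their transcripts.

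Same-numbered arrays of the 2 strains deviated together over all genes, for each of the 3 numbers. Correlations of the deviations from the group means were 0.69 for number 1, 0.53 for number 2 and 0.71 for number 3. Number 3 is described, a choice made with the values known, because SRX1 and GPX1 were lowest on it in both strains. The deviation of replicate 3 from the mean of replicates 1 and 2 correlated across the 5449 genes between the strains with r = 0.71 (genes are not independent replicates). For SRX1 this deviation was -0.43 in the deletion and -1.14 in the wild-type, and for GPX1 it was -0.33 and -0.39. For TSA2 it was 0.36 in the deletion and -0.49 in the wild-type, so its 2 strains deviated in opposite directions. For CTT1 it was 0.06 and -0.13. Replicate 3 was lower by more than 0.4 in both strains for 4.68% of all genes. Without both arrays numbered 3, CTT1, TSA2, GPX1, CTA1, PRX1 and SOD2 were called higher, by a fit that called 19.6% of all genes higher and 6.18% lower, and CCP1 was not (log2 change 0.18, adjusted p = 0.0716).

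**Figure D4:**
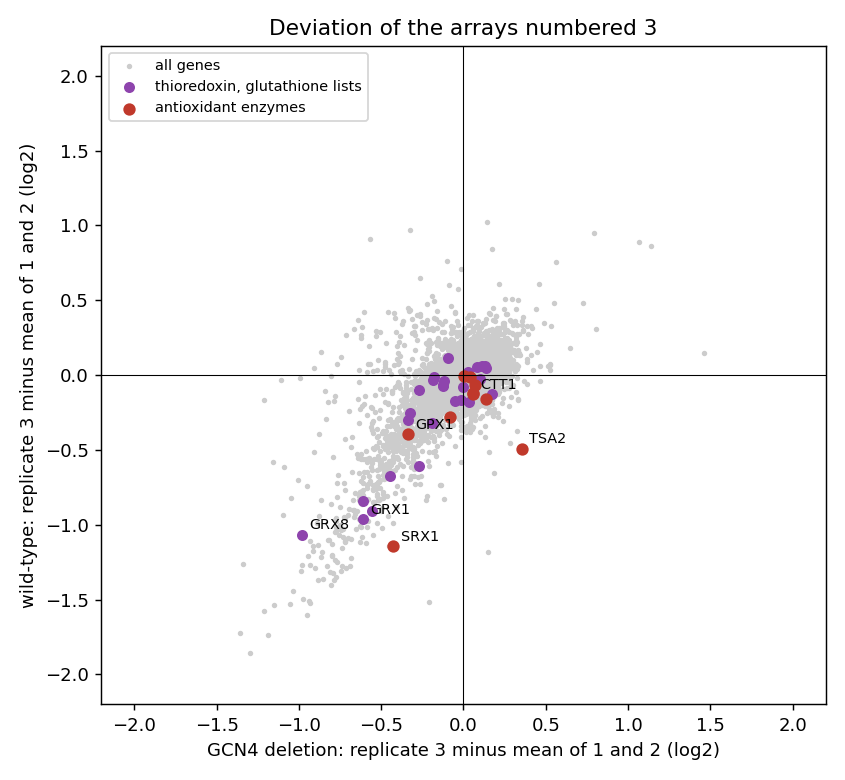
Deviation of replicate 3 from the mean of replicates 1 and 2 on the log2 scale, in the GCN4 deletion (horizontal) and the wild-type (vertical), for all genes in grey, genes of the thioredoxin and glutathione lists in purple and the antioxidant enzymes in red. Genes such as SRX1, GRX1 and GRX8 lie low on both axes, and TSA2 lies at 0.36 and -0.49.

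The genes whose pattern over the 6 arrays was most like that of CTT1 were SOL4, TOS8 and NQM1. Likeness was the root mean square distance between log2 values from which the mean of each gene had been subtracted, and it was 0.08, 0.10 and 0.11. SOL4 encodes a 6-phosphogluconolactonase and NQM1 a transaldolase related to Tal1. Their log2 changes were 2.15 for SOL4, 2.05 for TOS8 and 2.13 for NQM1. The gap between the strains enters the distance, so changes near that of CTT1 follow from the way these genes were chosen. For TSA2 the nearest genes were HXT8, a member of the hexose transporter family, MAL11, an alpha-glucoside transporter gene, and YBR284W, at distances of 0.11, 0.15 and 0.16. HXT8 was above the background level on 2 of the 3 wild-type arrays.

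Around these enzymes stand the systems that feed them, given as 7 lists. Of the 74 genes in them, all measured, 17 rose, 3 fell and 54 did not pass, where 24.6% of all genes rose and 7.67% fell. Their median log2 change was 0.09, the same to 2 decimals as that of all genes. With a replicate block 30 rose and 5 fell, against 35.3% and 12.2% of all genes, and after centring 13 rose and 8 fell, against 14.3% and 12.9%. The counts of single lists below stand against these same shares.

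**Figure D5:**
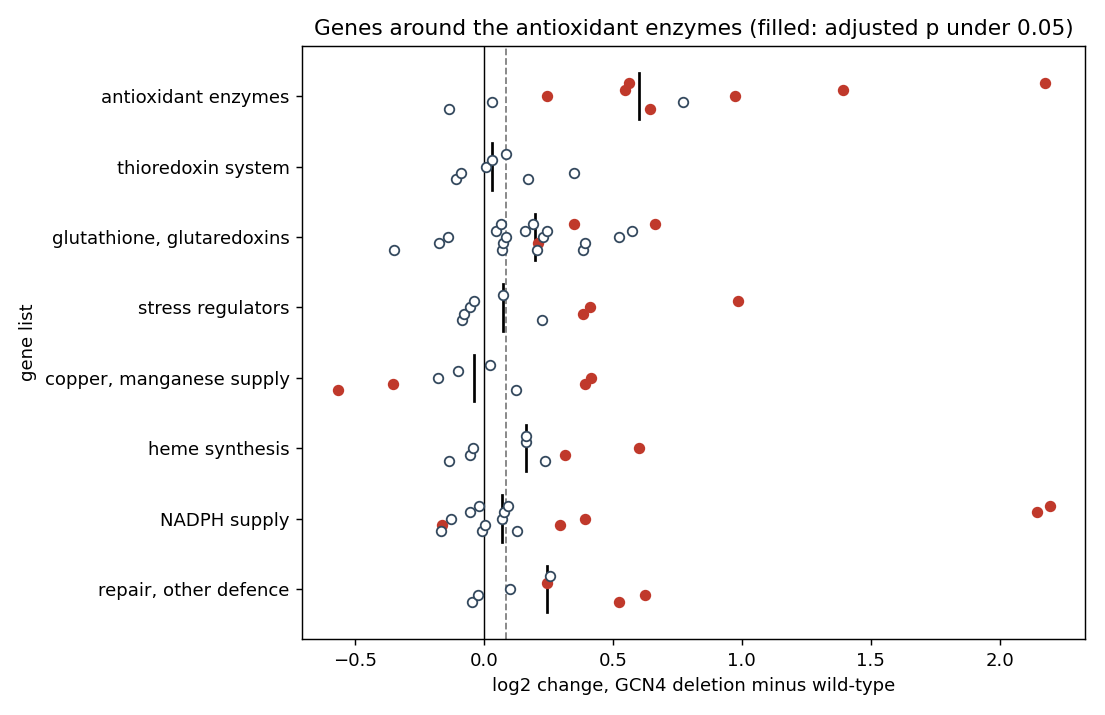
Log2 change, GCN4 deletion minus wild-type, of each gene in the antioxidant set and the 7 lists around it. Filled points had an adjusted p under 0.05, short black bars mark the median of a list and the dashed line the median of all genes. The thioredoxin list has no filled point, and GND2 and SOL4 stand beyond 2 in the NADPH list.

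Of 7 genes for thioredoxins, their reductases and further peroxiredoxins, 0 passed by limma, or by the plain test, and 1 was higher at an unadjusted p under 0.05. Their log2 changes were -0.11 to 0.35, and 2 genes rose with a replicate block. After centring 1 gene fell, TRR2 (log2 change -0.19, adjusted p = 0.0433 by limma), where 12.9% of all genes did. After quantile normalization 1 gene fell, where 16.0% of all genes did. Of 20 glutathione and glutaredoxin genes 3 rose and 0 fell by limma, with 7 higher and 1 lower at an unadjusted p under 0.05, where 32.0% and 10.9% of all genes were. With the block 10 rose and 2 fell, where 35.3% and 12.2% of all genes did, and after centring 2 rose and 2 fell. GTT2, a glutathione transferase gene, rose 1.58-fold (adjusted p = 0.000653) and ECM4, another, 1.27-fold (adjusted p = 0.00381). GSH1, which encodes the first enzyme of glutathione synthesis, rose 1.16-fold (adjusted p = 0.0449), a call lost in 14 of 20 alternatives, among them leaving out any single array (adjusted p of 0.0672 to 0.139). The glutaredoxin genes GRX1, GRX2 and GRX8 and the mitochondrial thioredoxin gene TRX3 were low on both arrays numbered 3, as SRX1 was. GRX1 had log2 levels of 12.19, 12.10 and 11.54 in the deletion, against 11.65, 11.82 and 10.77 in the wild-type. Its log2 change was 0.53, with an adjusted p of 0.25 that was 0.01 with the block. The log2 changes of GRX2, GRX8 and TRX3 were 0.58, 0.39 and 0.35, and with the block their adjusted p were 0.0182, 0.0105 and 0.0204. Without wild-type replicate 3 the log2 changes of GRX1, GRX2, GRX8 and TRX3 were 0.20, 0.27, 0.035 and 0.069. Over all single arrays left out they ranged up to 0.73, 0.81, 0.72 and 0.55, and none of the 4 genes was called in those fits by limma. Without both arrays numbered 3 GRX1 was called higher (log2 change 0.41, adjusted p = 0.0333), and GRX2, GRX8 and TRX3 were not called.

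Among 9 regulators of the oxidative and general stress response 3 rose and 0 fell. At an unadjusted p under 0.05 by limma 4 were higher and 0 lower, against 32.0% and 10.9% of all genes. The plain test with adjustment gave 2 higher and 0 lower, against 20.6% and 6.57%. In the heme list these tests gave 4 and 2 higher, in the repair list 3 and 3, and 0 lower in both. With the block after centring 2 regulators, 3 heme genes and 1 repair gene were lower. With the block after quantile normalization these counts were 3, 3 and 1. Shares of all genes in those blocked fits are not given. CUP2, the copper-sensing activator of SOD1 and metallothionein genes, had log2 levels of 10.80, 10.97 and 10.93 in the deletion, against 9.99, 9.89 and 9.86 in the wild-type. It rose 1.98-fold (adjusted p = 0.000131), beside the log2 change of 0.03 of SOD1. HSF1, the heat shock factor gene, rose 1.31-fold (adjusted p = 0.00176) and MSN4 1.33-fold (adjusted p = 0.0204). The call of MSN4 was lost in 8 of 20 alternatives, among them without deletion replicate 2 or 3 or wild-type replicate 1 or 3 (adjusted p of 0.0712, 0.0575, 0.072 and 0.0538). MSN2 had a log2 change of -0.05 (adjusted p = 0.434), and fell with a replicate block after centring (log2 change -0.16, adjusted p = 0.0325) or after quantile normalization (log2 change -0.16, adjusted p = 0.0305). SKN7 had a log2 change of -0.08 (adjusted p = 0.472). YAP1 had a log2 change of 0.23 and an adjusted p of 0.0599, and was called higher with a replicate block (adjusted p = 0.0187).

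Of 8 genes of copper and manganese supply 2 rose and 2 fell. CTR1, a high-affinity copper transporter gene of the plasma membrane, was 1.48-fold lower in the deletion (adjusted p = 0.0011), and CCS1, the copper chaperone gene for Sod1, 1.28-fold lower (adjusted p = 0.0111). SMF1, a manganese transporter gene, rose 1.33-fold (adjusted p = 0.00268). CTR3, another copper transporter gene, rose 1.31-fold (adjusted p = 0.0425), a call lost in 11 of 20 alternatives, among them quantile normalization (log2 change 0.06), and without deletion replicate 1 or 2 or wild-type replicate 1 or 3 (adjusted p of 0.106, 0.107, 0.129 and 0.105). Of 8 genes of the synthesis of heme, the cofactor of the catalases and of Ccp1, 2 rose and 0 fell: HEM13, coproporphyrinogen oxidase, by 1.52-fold (adjusted p = 0.000339) and HEM2, porphobilinogen synthase, by 1.24-fold (adjusted p = 0.00258).

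Of 15 genes of NADPH supply 4 rose and 1 fell. GND2, the minor 6-phosphogluconate dehydrogenase gene, had log2 levels of 9.42, 9.23 and 9.24 in the deletion, against 7.34, 6.97 and 7.01 in the wild-type, and rose 4.58-fold (adjusted p = 4.71e-05). SOL4 rose 4.43-fold (adjusted p = 0.000192). The changes of these 2 genes and of CTT1 were of like size, 2.19, 2.15 and 2.17 on the log2 scale. The other isoforms GND1 and SOL3 did not pass, at log2 changes of 0.00 and 0.07 (adjusted p = 0.975 and 0.255). IDP2, cytosolic NADP-dependent isocitrate dehydrogenase, rose 1.31-fold, or by 0.21 on the log2 scale after quantile normalization (adjusted p = 0.078), and POS5, the mitochondrial NADH kinase gene, 1.23-fold, a call that ended after centring (adjusted p = 0.0544). IDP1, the mitochondrial isocitrate dehydrogenase, was 1.12-fold lower (adjusted p = 0.0428), and was not called without deletion replicate 1, deletion replicate 2 or any of the wild-type arrays, with an adjusted p between 0.0901 and 0.134.

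Of 7 genes for oxidant repair and other defence 3 rose and 0 fell. MCR1, mitochondrial NADH-cytochrome b5 reductase, rose 1.54-fold (adjusted p = 0.000727), and MXR1, which reduces oxidised methionine, 1.44-fold (adjusted p = 0.00925). YHB1, the flavohemoglobin gene, rose 1.18-fold (adjusted p = 0.0248), a call lost in 11 of 20 alternatives, among them centring (adjusted p = 0.145), and without deletion replicate 2 or 3 or wild-type replicate 1 or 3 (adjusted p of 0.0866, 0.0691, 0.0844 and 0.0693).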

How the data were processed

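The authors deposited normalised probe set intensities on a linear scale, from 9.03 to 35044. Per the submitters' processing notes, R 2.8.0, affy and RMA were used, with no role or order given. The design had been written for log2 values, so log2 was taken here with no pseudocount. Gene names came from the annotation of the platform, with symbols updated by gene identifier through the R64 gene table. For the 47 genes with several probe sets the one with the highest mean was kept. limma 3.58.1 (R 4.3.3, lmFit and eBayes, no covariate, two-sided) was fitted to all 5449 genes with Benjamini-Hochberg adjustment and a threshold of 0.05.

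On data simulated for this comparison with 5449 genes, 72% of 50 genes changed by 0.5, 92% of 50 changed by 1 and 100% of 50 changed by 2 on the log2 scale were recovered. Of 190 calls 10 were false. The simulated noise was independent between arrays and few genes were changed. The measured arrays deviated together by number and far more genes were called, so these shares are not the power of the measured data. Over all genes, same-numbered arrays of the 2 strains deviated together from their group means (r of 0.69, 0.53 and 0.71, above a limit of 0.1). The labels state no pairing, and the values given come from the fit without a block. The fit with a replicate block is an alternative, printed where it changes the call of a named gene. Other genes of the lists whose call it changed, such as GRX5 and GSH2, enter the counts only. The permutation tests also leave the numbers out.

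The members and lists were chosen with earlier results of these data known. Named genes were all 10 members, GCN4, up to 4 called genes with the largest changes per list, YAP1, SKN7, MSN2 and MSN4, and the 3 genes most like each of the 2 members with the largest changes. GRX1, GRX2, GRX8, TRX3, SOL3, GND1 and IDP1 were added with their values already known. The number of arrays limits the precision. Figures used matplotlib 3.10.9.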

Additional observations from a re-analysis of the deposited data

How the results depend on the processing

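CTT1, TSA2, GPX1, PRX1 and SOD2 were called higher under all 20 alternatives, and the antioxidant genes called higher numbered 5 to 8 over them, or 6 to 7 on leaving out single arrays. The number called lower was 0 as deposited and 1 (TSA1) after centring, with eBayes trend and robust, with array weights, with the replicate block, with the plain equal-variance test, and with the block after centring; it was 0 on leaving out any single array. The block changed 2 calls of the 10 genes, those of SRX1 and TSA1. The genes of the 7 lists called higher numbered 17 as deposited, 30 with the replicate block, 6 against a fold of 1.2, and 13 to 17 without single arrays. Those called lower numbered 3 as deposited, 8 after centring, 8 after quantile normalization, 6 after cyclic loess, 5 with the block, 1 against a fold of 1.2, 19 with the block after centring, 17 with the block after quantile normalization, and 2 to 3 without single arrays. Both blocked fits on rescaled values, and leaving out both arrays numbered 3, were chosen after seeing the data. SOD1 changed sign in log2 change after centring (-0.072, with and without the block), without both arrays numbered 3 (-0.037), and among single arrays left out (-0.064 to 0.094). SOL3 changed sign after centring (-0.032, with and without the block). GND1 did so after centring (-0.10, with and without the block), with array weights (-0.0077), without both arrays numbered 3 (-0.025), and among single arrays left out (-0.040 to 0.042). The causes were not tested. The differences between paired enzymes kept their sign under the 7 alternatives run for each, at 1.44 to 1.86 for CTT1 minus CTA1, -0.56 to -0.43 for SOD1 minus SOD2, 1.13 to 1.68 for TSA2 minus TSA1 and 0.59 to 0.73 for PRX1 minus TSA1. The planned search for motifs in upstream sequence was not run, because sequence was not used here.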
